A study of Homo sapiens with 6 samples.

Results

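The genes described are 10 transporters of cationic and neutral amino acids, SLC7A1, SLC7A2, SLC7A3, SLC1A4, SLC38A1, SLC38A2, SLC38A9, SLC36A1, SLC36A4 and SLC6A9, out of 57500 genes in the count tables. They were chosen by name, as transporters outside the group of LAT1, a large neutral amino acid exchanger encoded by SLC7A5, and all 10 were found in the tables. RNA was sequenced from 22Rv1, a long-established line of human prostate cancer cells, with 3 libraries in each of 2 groups. The parental group is labelled as control and wild type, and the other group consists of 22Rv1 cells obtained from a liver metastasis (liver-derived below). Both carry the label 22Rv1 and no allele or agent, and one growth protocol is given for both, RPMI-1640 with 10% fetal bovine serum. The labels name no host, no age, no number of metastases and no separate derivations. The liver-derived libraries may therefore stand for a single derived line, and p-values measure only the spread between libraries.

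Cells take up arginine, lysine and ornithine largely through the CAT proteins of the SLC7 family, which work without sodium. Small neutral amino acids such as alanine, serine and glutamine enter with sodium through SLC1 and SLC38 proteins, and glycine with sodium and chloride through SLC6A9. A further set acts at the lysosome, where SLC38A9 senses arginine and passes the signal to the growth kinase complex mTORC1. When amino acids run short, the kinase GCN2 raises translation of the transcription factor ATF4, which binds C/EBP-ATF response elements in genes of transporters, aminoacyl-tRNA synthetases and biosynthetic enzymes. In liver, arginine is an intermediate of the urea cycle, and in prostate cancer cells amino acid uptake is known to support growth.

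Start-site windows are shown for the members in whose windows a searched motif was found. SLC38A2 and SLC6A9, both higher in the liver-derived cells, are shown as members whose windows held no match. Sequence outside the windows, introns included, was not searched. The RefSeq promoter set (GRCh38.p14) held windows of 250 bases before and 50 after a start site for 8 of the 10 members, 14 windows in all. Each window was searched on both strands for TGATGNAA, the core of the C/EBP-ATF element (read TTNCATCA when it lies on the other strand), and for TCACGTGA, the core of the lysosomal CLEAR element bound by TFEB and its relatives, which is its own reverse complement. These 2 motifs do not overlap in the windows printed. Each line runs 5′ to 3′ along the gene's strand from 120 bases before the start site to 30 bases into the transcript, with the match in capitals. The windows are chr13:29595659-29595808 (minus strand) for SLC7A1, chr2:64989279-64989428 (plus) for SLC1A4, chr12:46266487-46266636 (minus) for SLC38A1, chr5:151447483-151447632 (plus) for SLC36A1, chr12:46372744-46372893 (minus) for SLC38A2 and chr1:44031433-44031582 (minus) for SLC6A9.
SLC7A1: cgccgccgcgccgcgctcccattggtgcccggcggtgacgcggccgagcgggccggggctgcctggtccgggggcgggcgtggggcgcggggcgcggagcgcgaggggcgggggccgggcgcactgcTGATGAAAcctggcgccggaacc
SLC1A4: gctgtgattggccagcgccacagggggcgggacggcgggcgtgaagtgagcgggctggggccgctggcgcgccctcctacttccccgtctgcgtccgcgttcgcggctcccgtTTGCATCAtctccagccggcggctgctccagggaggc
SLC38A1: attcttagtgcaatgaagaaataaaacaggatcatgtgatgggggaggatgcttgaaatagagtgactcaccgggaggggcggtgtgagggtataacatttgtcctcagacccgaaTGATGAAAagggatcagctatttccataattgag
SLC36A1: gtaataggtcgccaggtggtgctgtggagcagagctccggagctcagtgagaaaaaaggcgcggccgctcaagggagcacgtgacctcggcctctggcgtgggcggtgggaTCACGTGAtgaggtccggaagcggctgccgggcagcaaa
SLC38A2: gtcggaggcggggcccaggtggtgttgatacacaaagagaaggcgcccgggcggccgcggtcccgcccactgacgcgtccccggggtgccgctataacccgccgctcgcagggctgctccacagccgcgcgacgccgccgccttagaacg
SLC6A9: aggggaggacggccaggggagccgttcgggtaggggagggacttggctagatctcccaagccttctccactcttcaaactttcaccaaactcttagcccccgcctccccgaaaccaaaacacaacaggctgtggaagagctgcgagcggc

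The C/EBP-ATF core was found in a window of 3 of the 8 members with a promoter. It begins 8 bases into the transcript in SLC7A1, 7 bases before the start in SLC1A4 on the opposite strand, and 4 bases before the start in SLC38A1. Among all 35116 windows in RefSeq 3.62% held this core, and among all 27305 genes 4.46% held it in at least 1 window. The CLEAR core was found in 1 member, SLC36A1, beginning 9 bases before the start, against 0.980% of all windows and 1.18% of all genes. The start sites of the SLC7A1, SLC38A2 and SLC6A9 windows lie 0, 94 and 5 bp from the 5′ end of the gene in the count files. Those of the SLC1A4, SLC38A1 and SLC36A1 windows with a match lie 922, 3501 and 10557 bp from it, and which start these cells use was not measured. A match is a run of letters, and binding was not measured.

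The libraries held 28395265 to 53275252 counts, with liver-derived replicate 2 the shallowest, and 19255 genes passed a filter on low counts and were tested. Parental replicate 2 stood apart: compared with parental replicates 1 and 3 it gave a chi-square of 55.3 and 61.8 per degree of freedom, and the other pairs within a group gave 2.24 to 3.15. Its deviation from the parental mean rose with the GC content of genes, by 0.195 on the log2 scale per 10% GC. All 11 luminal prostate markers reached 1 CPM (counts scaled to a common library size). Their summed level was 4102 to 4382 CPM in parental and 3365 to 3432 CPM in liver-derived libraries. Of these 11, 3 were higher and 7 lower, with a median log2 fold change of -1.02. The mean of KLK4 went from 526 to 63.9 CPM and that of KLK2 from 124 to 13.6 CPM. That of KRT8 went from 659 to 1144 CPM. Basal markers summed to 3.39 to 5.25 and 1.36 to 2.08 CPM, with TP63 under 1 CPM. Of 12 hepatocyte markers, 9 stayed under 1 CPM, among them APOA1, APOB, TTR and SERPINA1, and the list summed to 53.7 to 64.3 and 68.0 to 71.4 CPM, most of it ALB. Of the 4 hepatocyte markers tested, 2 were higher and 2 lower, with a median log2 fold change of -0.90. The mean of ALB went from 47.7 to 65.8 CPM, that of CPS1 from 10.5 to 2.18 CPM and that of ASGR1 from 1.47 to 0.178 CPM. Markers of stroma, endothelium and leukocytes summed to 32.7 to 34.9 and 32.4 to 41.3 CPM, with CD3E and CDH5 at 0. The part of these levels in the results below was not tested.

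Of the 10 transporters, 4 were higher in the liver-derived cells (SLC6A9, SLC38A2, SLC1A4 and SLC7A1), 1 was lower (SLC7A2), 4 did not pass the test and SLC7A3 had no reads. The test was edgeR's quasi-likelihood test with Benjamini-Hochberg adjustment over all 19255 genes and a threshold of 0.05. Of all tested genes it called 38.8%, 17.5% as higher and 21.3% as lower, beside 5 of the 9 members tested. The median log2 fold change of the 9 was 0.25, beside -0.0075 for all genes tested. The CPM ranges of the groups did not overlap in 6 of the 9 (SLC38A1 and the 5 called), beside 54.0% of all genes tested. In bulk RNA, a change in the share of cells that express a gene cannot be told apart from a change in RNA per cell.

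**Figure D1:**
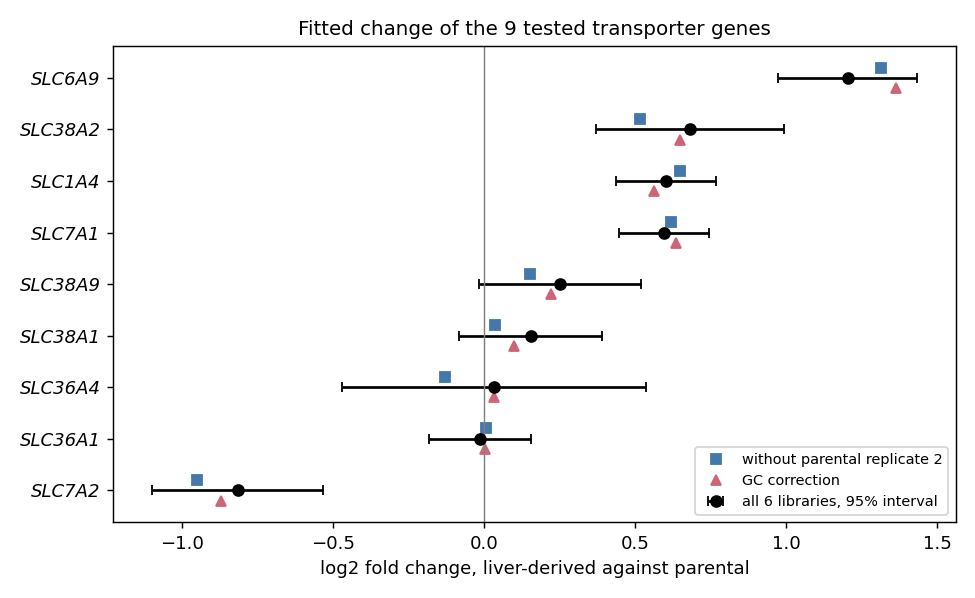
Fitted log2 fold change of each tested transporter gene, liver-derived against parental, with its 95% confidence interval (circles and bars; horizontal axis, log2 scale). Squares are the values without parental replicate 2 and triangles those after the GC correction. The intervals of SLC6A9, SLC38A2, SLC1A4 and SLC7A1 lie above 0 and that of SLC7A2 lies below 0, while those of SLC38A1, SLC38A9, SLC36A1 and SLC36A4 include 0.

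SLC7A1 encodes CAT-1, the widely expressed carrier of arginine, lysine and ornithine. The gene (ENSG00000139514) lies at chr13:29509410-29595688 on the minus strand of GRCh38. Parental replicates 1 to 3 held 140.1, 150.1 and 146 CPM, and liver-derived replicates 1 to 3 held 226, 213 and 219.9 CPM. Every liver-derived library lay above every parental one. Means of 145 ± 5.09 and 219.7 ± 6.78 CPM (SD, n = 3 each) correspond to a 1.51-fold higher level, with a log2 fold change of 0.59 (SE 0.066, edgeR adjusted p = 1.06e-04).

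SLC7A2 encodes CAT-2, whose splice forms include a low-affinity arginine carrier known from liver. The gene (ENSG00000003989) lies at chr8:17497088-17570573 on the plus strand. It moved opposite to SLC7A1, with 45.3, 34.1 and 47.4 CPM in the parental and 25.3, 24.2 and 22.6 CPM in the liver-derived libraries. The groups did not overlap, and parental replicate 2 was the lowest of its group. The means of 42.3 ± 7.15 and 24.0 ± 1.37 CPM (SD, n = 3 each) gave a log2 fold change of -0.82 (SE 0.13, edgeR adjusted p = 8.87e-04), or 1.76-fold lower. The counts are per gene, so the splice forms are not separated. SLC7A3, the gene of CAT-3 (ENSG00000165349, chrX:70925582-70931125, minus strand), had 0 counts in all 6 libraries. A count of 0 allows up to 0.0563 to 0.106 CPM, depending on the library, for counting error only.

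The balance between the CAT genes also differed between the groups. On the TPM scale, which divides by gene length, SLC7A1 exceeded SLC7A2 by 3.18, 4.52 and 3.17 times in the parental libraries and by 9.20, 9.04 and 10.01 times in the liver-derived ones. SLC7A2 made up 18.1 to 24.0% of the pair's summed TPM in parental cells and 9.08 to 9.96% in liver-derived cells. The sum itself was 87.7 ± 5.59 TPM in parental and 111 ± 3.47 TPM in liver-derived cells (SD, n = 3 each). These ratios and sums were chosen after the levels were seen. An exact permutation test gave p = 0.1 for the ratio, the share and the sum. With 3 libraries against 3 it cannot give less, so it decides nothing.

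**Figure D2:**
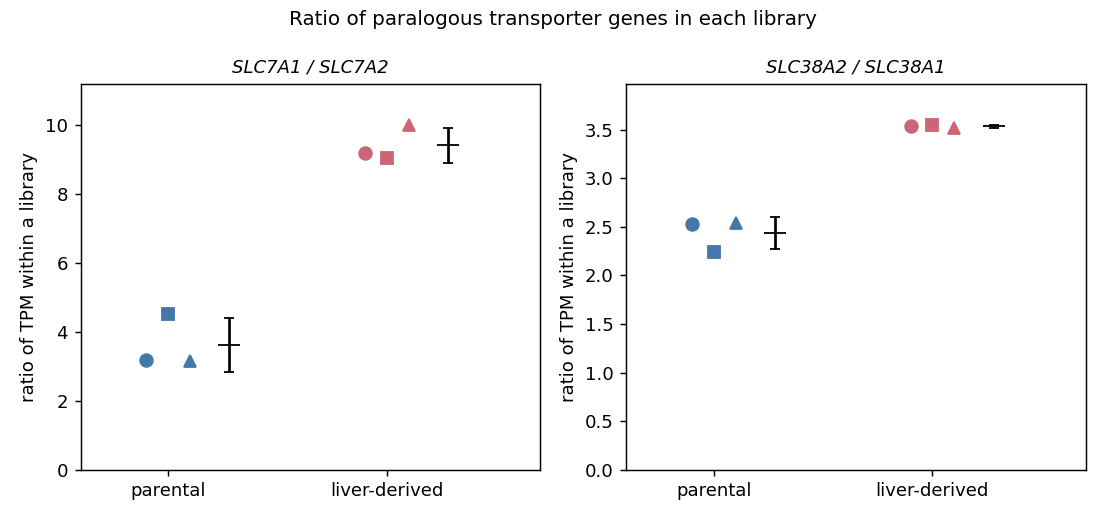
Ratio of TPM between paralogous transporter genes in each library (vertical axes are linear and start at 0; circle, square and triangle are replicates 1, 2 and 3, and bars are mean ± SD, n = 3), SLC7A1 over SLC7A2 and SLC38A2 over SLC38A1. Liver-derived libraries lie at 9.04 to 10.01 and 3.52 to 3.55, above parental libraries at 3.17 to 4.52 and 2.24 to 2.55.

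SLC1A4 encodes ASCT1, a sodium-dependent exchanger of alanine, serine, cysteine and threonine. The gene (ENSG00000115902) lies at chr2:64988477-65023865 on the plus strand. It stood at 47.5, 51.1 and 45.3 CPM in the parental libraries, against 72.3, 73.1 and 73.1 CPM in the liver-derived ones, without overlap. The means were 48.0 ± 2.90 and 72.8 ± 0.468 CPM (SD, n = 3 each), and the log2 fold change was 0.60 (SE 0.073, edgeR adjusted p = 1.83e-04), or 1.52-fold higher. Without parental replicate 2 it was 0.65.

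SLC38A2 and SLC38A1 encode SNAT2 and SNAT1, sodium-coupled carriers of glutamine, alanine and other small neutral amino acids. SNAT2 is the form known for its induction by amino acid shortage. The genes are neighbours on the minus strand of chromosome 12, SLC38A1 (ENSG00000111371) at chr12:46183063-46270017 and SLC38A2 (ENSG00000134294) at chr12:46358189-46372867, 88.2 kb apart with 0 protein-coding genes between them.

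SLC38A2 stood at 488, 332 and 496 CPM in the parental, against 697, 704 and 708 CPM in the liver-derived libraries. The groups did not overlap, but parental replicate 2 lay far below its group. The means of 439 ± 92.1 and 703 ± 5.69 CPM (SD, n = 3 each) gave a log2 fold change of 0.68 (SE 0.14, edgeR adjusted p = 0.00407), or 1.60-fold higher. Without parental replicate 2 the log2 fold change was 0.51 (edgeR adjusted p = 5.55e-22), in a fit that called 59.8% of all genes tested. With limma on log2(TPM + 1) and no filter on low values the call was lost (0.66, adjusted p = 0.0616), in a range of adjusted p from 1.64e-24 to 0.0616 over the alternatives.

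SLC38A1 stood at 293, 225 and 296 CPM in the parental libraries, against 298, 301 and 305 CPM in the liver-derived ones. The groups did not overlap, by 298 against 296 CPM. The means were 271 ± 40.1 and 301 ± 3.49 CPM (SD, n = 3 each). The log2 fold change of 0.15 (SE 0.10, 95% interval -0.083 to 0.39) did not pass (edgeR adjusted p = 0.283). Without parental replicate 2 it was 0.03 (adjusted p = 0.171), and after a correction for GC content it was 0.10 and passed (adjusted p = 0.0292). The GC-corrected fit called 56.7% of all genes tested, beside 38.8% in the main fit.

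The ratio of SLC38A2 to SLC38A1 in TPM was 2.53, 2.24 and 2.55 in the parental libraries. In the liver-derived ones it was 3.54, 3.55 and 3.52, again without overlap. The exact permutation test again gave p = 0.1, its smallest possible value here. A further gene of the family, SLC38A4, which lies 392 kb from SLC38A2 and encodes another system A carrier, is named here for its position. It fell from 10.9 ± 1.33 to 3.92 ± 0.367 CPM (SD, n = 3 each; log2 fold change -1.48, SE 0.12). The 3 genes of this stretch were therefore higher, not passed and lower. SLC38A4 was added outside the naming rule. SLC36A2 and SLC36A3, which lie 89.5 and 133 kb from SLC36A1, had too few reads to be tested.

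SLC6A9 encodes GlyT1, a glycine transporter known for clearing glycine at synapses. The gene (ENSG00000196517) lies at chr1:43991500-44031467 on the minus strand. It showed the largest change among the members, from 16.6, 20.8 and 17.0 CPM in the parental libraries to 43.7, 40.4 and 40.8 CPM in the liver-derived ones. Each liver-derived value was above 40 CPM and each parental value below 21 CPM. The means of 18.1 ± 2.32 and 41.7 ± 1.81 CPM (SD, n = 3 each) gave a log2 fold change of 1.20 (SE 0.10, edgeR adjusted p = 2.23e-05), or 2.30-fold higher. Its exons overlap those of CCDC24 on the opposite strand over 404 bp. CCDC24 held 915 to 967 reads per parental library and 360 to 728 per liver-derived library, and without a known strand setting the reads of this stretch cannot be assigned.

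The genes whose profile over the 6 libraries was most like that of SLC6A9 were RRBP1, EPHA2 and CACNA1D, out of 10386 genes ranked. Likeness was the mean absolute difference of log2 CPM after each gene was centred on its own mean, and it was 0.0189, 0.0237 and 0.0269. In SLC6A9 and in each of these genes parental replicate 2 held the highest parental level, so the deviation of that library entered the likeness. Shared regulation was not tested. RRBP1, a ribosome-binding protein of the endoplasmic reticulum, stood at 88.3 ± 11.2 and 198 ± 4.11 CPM (SD, n = 3 each). EPHA2, a receptor tyrosine kinase, stood at 35.6 ± 4.16 and 83.8 ± 2.14 CPM. CACNA1D, a calcium channel subunit, stood at 5.39 ± 0.661 and 12.5 ± 0.729 CPM, and it overlaps CHDH on the opposite strand over 1399 bp. CHDH held 3534 to 3762 reads per parental library and 4545 to 8557 per liver-derived library. CACNA1D held only 243 to 279 and 327 to 685. Without a known strand setting the reads of this stretch cannot be assigned, so the CACNA1D profile may hold CHDH reads.

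**Figure D3:**
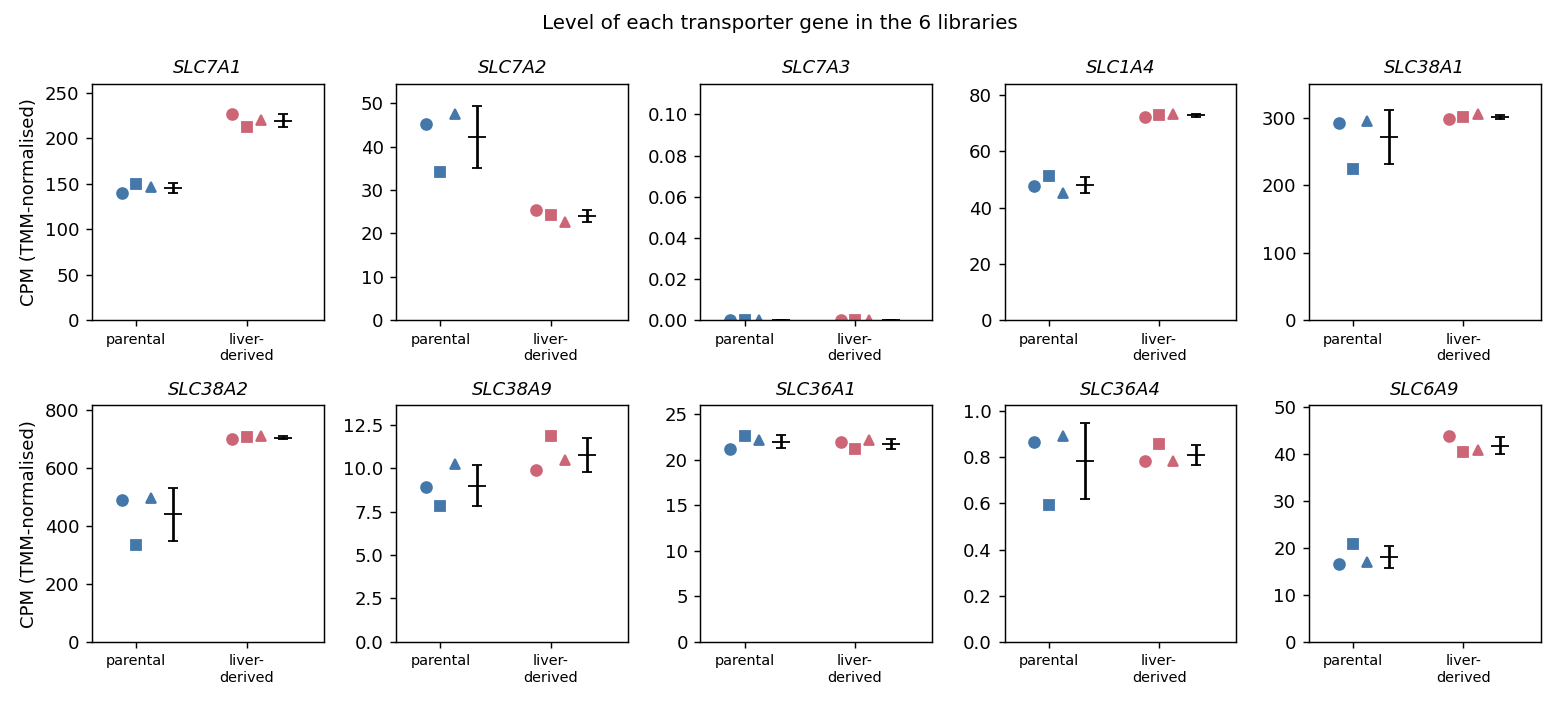
Normalised level of each transporter gene in each library (vertical axes in CPM, linear, starting at 0, one scale per gene; circle, square and triangle are replicates 1, 2 and 3, and bars are mean ± SD, n = 3). The points of SLC6A9, SLC38A2, SLC1A4, SLC7A1, SLC7A2 and, narrowly, SLC38A1 separate by group, and the square of the parental group is the lowest parental point of SLC38A1, SLC38A2, SLC38A9, SLC36A4 and SLC7A2.

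The 3 transporters known from lysosomes or the proton-coupled SLC36 family did not pass. SLC38A9, the lysosomal arginine sensor (ENSG00000177058, chr5:55625845-55773194, minus strand), stood at 8.91, 7.84 and 10.2 CPM in the parental and 9.92, 11.8 and 10.5 CPM in the liver-derived libraries, so the groups overlap. The means were 8.99 ± 1.19 and 10.8 ± 0.989 CPM (SD, n = 3 each), and the difference was 0.25 on the log2 scale (95% interval -0.018 to 0.52, edgeR adjusted p = 0.127).

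SLC36A1 encodes PAT1, a proton-coupled carrier of small amino acids found on lysosomes (ENSG00000123643, chr5:151437046-151492381, plus strand). It stood at 21.2, 22.6 and 22.1 CPM in the parental and 21.9, 21.1 and 22.2 CPM in the liver-derived libraries, within one another's range. The difference was -0.015 (95% interval -0.18 to 0.15, edgeR adjusted p = 0.897). SLC36A4 encodes PAT4, a carrier of proline and tryptophan (ENSG00000180773, chr11:93144171-93197964, minus strand). Its level was under 1 CPM in every library, at 0.865, 0.595 and 0.891 against 0.785, 0.859 and 0.783 CPM, from 24 to 47 reads each, and the groups overlap. The difference was 0.03 (95% interval -0.47 to 0.53, edgeR adjusted p = 0.927).

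On the TPM scale the parental order of mean levels was SLC38A2 (242 ± 59.5), SLC38A1 (98.2 ± 18.3), SLC7A1 (68.3 ± 2.10), SLC1A4 (24.9 ± 0.566), SLC7A2 (19.4 ± 4.02), SLC6A9 (12.6 ± 1.06), SLC36A1 (11.4 ± 0.381), SLC38A9 (3.69 ± 0.627) and SLC36A4 (0.294 ± 0.0722; SD, n = 3 each). The ranges of neighbours in this order did not overlap in the parental libraries. In the liver-derived libraries SLC38A2 was again first (374 ± 2.19 TPM), then SLC38A1 (106 ± 0.856) and SLC7A1 (100.3 ± 3.11). SLC6A9 (28.4 ± 1.28) ranked above SLC36A1 (10.9 ± 0.243) and SLC7A2 (10.7 ± 0.645), and the ranges of SLC36A1 and SLC7A2 overlapped. The summed TPM of the members was 521, 385 and 535 in the parental and 673, 670 and 671 in the liver-derived libraries. SLC38A2 alone held 44.9 to 52.3% of it in parental and 55.2 to 56.1% in liver-derived libraries.

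The deviation of parental replicate 2 differed in sign between members of low and of higher GC content. Against the mean of parental replicates 1 and 3, it was lower in all 5 members whose longest transcript has 35.0 to 41.3% GC, with differences of -32.4 to -18.0%. In the 4 members with 46.5 to 59.6% GC it was higher, by 4.21 to 23.8%. The extremes were SLC38A2 (-32.4%) and SLC6A9 (23.8%). Without this library the log2 fold changes were 0.62 for SLC7A1, -0.95 for SLC7A2, 0.51 for SLC38A2 and 1.31 for SLC6A9. Each of these was called, in a fit that called 59.8% of all genes tested. After the GC correction the same genes gave 0.63, -0.87, 0.65 and 1.36, in a fit that called 56.7% of all genes tested.

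**Figure D4:**
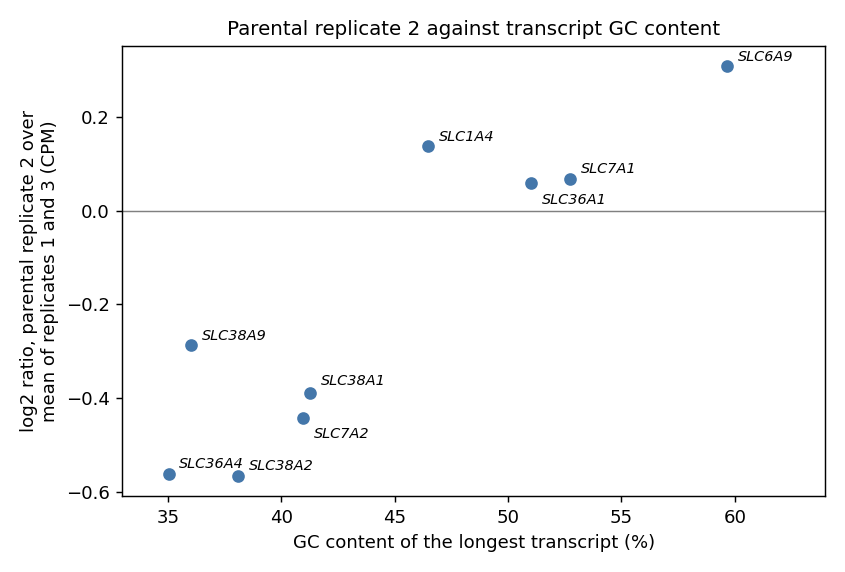
Log2 ratio of the CPM in parental replicate 2 to the mean of parental replicates 1 and 3 (vertical axis) against the GC content of the longest transcript (horizontal axis, percent), for the 9 transporter genes with reads. The 5 genes at 35.0 to 41.3% GC lie below 0 and the 4 at 46.5 to 59.6% lie above it.

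Of 39 further amino acid transporter genes, 23 were tested, of which 9 were higher, 7 lower and 7 not passed, with a median log2 fold change of 0.08. This is 69.6% called, beside 38.8% of all genes tested. The rule named SLC7A5, SLC3A2 and SLC43A1. SLC7A5, the LAT1 gene, stood at 263 ± 28.4 and 8495 ± 109.8 CPM (SD, n = 3 each), higher by 5.01 on the log2 scale (SE 0.095). SLC3A2, the partner chain of LAT1 that carries it to the membrane, rose from 175 ± 15.5 to 2616 ± 50.1 CPM (3.90, SE 0.084). SLC43A1, a further carrier of large neutral amino acids, rose by 2.73. The pseudogene SLC7A5P1 held 112 to 168 and 114 to 245 reads, and ENSG00000260466, which overlaps SLC7A5 on the opposite strand, held up to 43.

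The amino acid response list held 38 genes: the eIF2alpha kinases, of which GCN2 is 1, and ATF4 pathway factors and targets. Of these, 37 were tested, and 31 were higher, 1 lower and 5 not passed. The GCN2 gene, EIF2AK4, did not pass (0.14, edgeR adjusted p = 0.159), nor did EIF2AK2. The kinase genes EIF2AK1 (0.53) and EIF2AK3 (0.28) were higher. The list does not separate GCN2 from the other kinases, and amino acid shortage was not tested. The median log2 fold change was 0.60, and 86.5% were called beside 38.8% of all genes. ATF4 itself rose from 476 ± 41.0 to 644 ± 1.83 CPM (SD, n = 3 each; 0.43, edgeR adjusted p = 0.0017). DDIT4, an inhibitor of mTOR signalling, CHAC1, which degrades glutathione, and GDF15, a stress cytokine, were the members named by the rule, and GDF15 rose from 62.6 ± 6.70 to 231 ± 3.11 CPM (1.88). ATF5, a related factor chosen after its value was seen, was the only list member that was lower (-0.97), and it overlaps NUP62 and IL4I1 on the opposite strand. The C/EBP-ATF core was found in the promoter windows of 9 of the 30 list members with a promoter, beside 4.46% of all genes. The list was drawn up from ATF4 pathway factors and targets, so this share is not independent of how the list was chosen. Of the 9, 8 were higher (AARS1, ASNS, ATF3, CARS1, CEBPG, CHAC1, GARS1 and PPP1R15B), beside 31 of the 37 list members tested. The ninth, FGF21, was not tested. In the other lists the core was found in 3 of 32 transporters (SLC1A5 and SLC3A2, both higher, and SLC1A3, lower), in 1 of 29 lysosomal sensing genes (TSC2, not passed) and in 0 of 21 substrate enzymes. These shares were not tested against each other.

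Of 34 genes of amino acid sensing at the lysosome, 7 were higher, 3 lower and 24 not passed, with a median of -0.01. This is 29.4% called, beside 38.8% of all genes tested. The rule named SESN3, SESN2 and CASTOR2. SESN3 and SESN2 encode sestrins, of which SESN2 is a leucine sensor. They rose from 31.7 ± 6.47 to 117 ± 2.70 CPM (1.88, SE 0.14) and from 28.3 ± 2.31 to 51.9 ± 1.0 CPM (0.87, SE 0.081). CASTOR2, a relative of the arginine sensor CASTOR1, fell from 5.71 ± 0.814 to 3.77 ± 0.479 CPM (-0.59, edgeR adjusted p = 0.0094), and LAMTOR2 and RRAGB, singled out here only because they complete the count, were the other two lower; both were chosen after their values were seen. Without parental replicate 2, 14 of the 34 were higher and 9 lower, and in that fit 59.8% of all genes tested were called.

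Of 27 enzymes of arginine, polyamine, glutamine and glycine metabolism, 25 were tested, and 6 were higher, 8 lower and 11 not passed, with a median of -0.10. This is 56.0% called, beside 38.8% of all genes tested. SAT1, which acetylates polyamines for export and breakdown, rose from 27.4 ± 0.715 to 129 ± 2.80 CPM (2.24, SE 0.070). SMOX, which oxidises spermine, rose from 2.28 ± 0.267 to 6.67 ± 0.358 CPM (1.55). GLDC, the glycine-splitting enzyme of mitochondria, rose from 18.9 ± 1.02 to 41.6 ± 0.965 CPM (1.13, SE 0.077). These 3 were named by the rule, which took the largest changes, and all were higher. The 8 lower enzymes were PAOX, SMS, NOS3, GAMT, AZIN1, GCSH, OAZ1 and ODC1, with log2 fold changes from -0.98 (PAOX) to -0.22 (ODC1). The polyamine and glycine enzymes therefore went both ways. The count of lower enzymes changed when single libraries were left out. It was 13 without parental replicate 2, 5 without parental replicate 1 and 4 without liver-derived replicate 1. It was 3 without liver-derived replicate 2 or 3. Lower calls over all genes, 4101 with every library, moved in the same directions. They numbered 6156 and 3679 without parental replicates 2 and 1, and 3168, 3287 and 3245 without liver-derived replicates 1, 2 and 3. The direction of these shifts was therefore not particular to the enzymes. Relative to the count with every library, the shifts were larger for the enzymes, whose count rests on few genes.

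**Figure D5:**
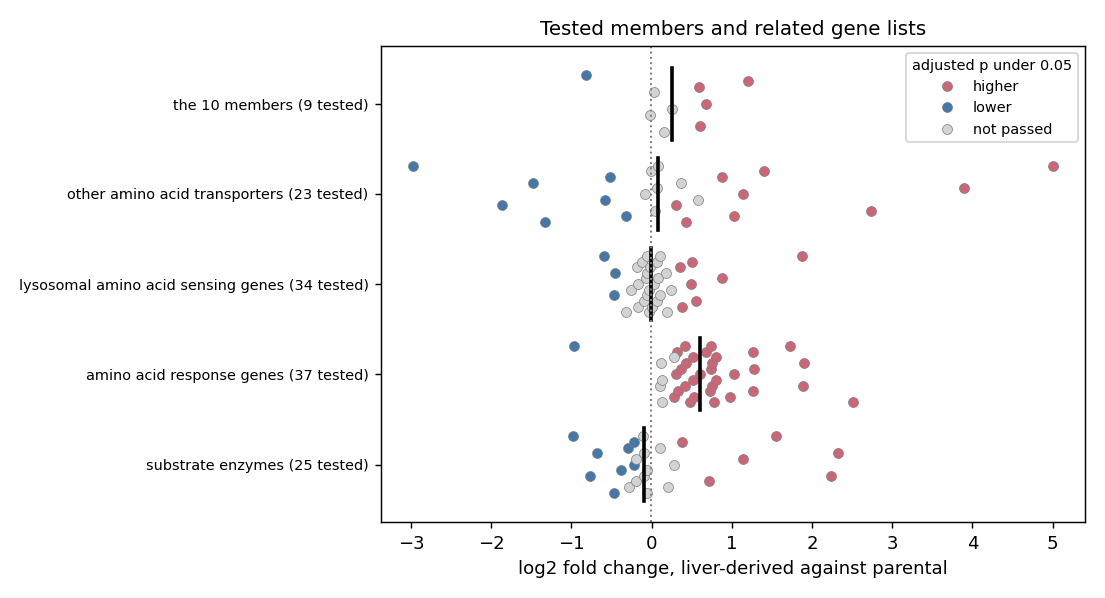
Fitted log2 fold change of the tested genes of each gene list, liver-derived against parental (log2 scale, 1 point per gene; red higher, blue lower, grey not passed; vertical bars are medians). The amino acid response genes lie mostly above 0, with a median of 0.60, and the transporter, lysosomal and enzyme lists spread to both sides of 0.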

How the data were processed

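PolyA-selected libraries were sequenced as read pairs, per the labels' protocols. The submitters' processing notes name Trimmomatic 0.36, STAR 2.5.2b, featureCounts and Subread 1.5.2, with the build GRCh38. Strand setting, annotation release and pair counting: not given in the sources used here. For each of the 6 libraries the authors deposited whole-number gene counts without normalization, and they deposited the TPM of these libraries as well. Recomputing TPM from counts and gene lengths gave the deposited values to a relative tolerance of 1e-04, so the TPM are no independent measurement. The 391182 rows without a gene at the end of that table were left out. The design text counts 3 conditions and names the 2 compared; any other was not analysed here.

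Counts were tested with edgeR 4.0.16 in R 4.3.3 (filterByExpr, TMM factors, robust quasi-likelihood fit, group as the only term), with Benjamini-Hochberg adjustment over 19255 genes and a threshold of 0.05. CPM are TMM-normalised. TPM were tested with limma 3.58.1 on log2(TPM + 1), where folds of low genes are understated. GC content came from the longest GENCODE 29 transcript. On counts simulated at the depths of these libraries, run on 18973 genes, the test recovered 68.7% of 67 genes changed 1.5-fold and 83.6% of 67 changed 2-fold, with 11 false calls. The simulation gave every gene the same relative spread between libraries and held no deviating library such as parental replicate 2. Its recovery and false calls therefore do not give the error rates of the real comparison.

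The 10 members, the gene lists and the rules were chosen with earlier results of these data known. The named genes were all members, the 3 called genes of each list with the largest change among those with a mean of 1 CPM or more in either group, and the 3 genes most like the member with the largest change. The 19 alternatives were other scaling factors, other filters, limma-voom, DESeq2 1.42.0, omission of each library in turn, both second replicates removed, the replicate number as a block, a GC correction by a smooth curve per library, and the TPM fits with a pseudocount of 1 or 0.1 or no filter.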

Additional observations from a re-analysis of the deposited data

How the results depend on the processing

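The calls of the members held under the 19 alternatives, except that SLC38A1 passed after the GC correction (0.10, adjusted p = 0.0292) and SLC38A2 did not pass with limma on log2(TPM + 1) without a filter (adjusted p = 0.0616). Of all genes tested, these fits called 56.7% and 17.7%. The cause of these changed calls was not tested. The direction of SLC36A1 held in 15 of 19 alternatives and that of SLC36A4 in 13 of 16. Of 228 recomputed counts of calls, 208 were within 1.5 times of the value reported. Over all genes, those higher numbered 5759 with both second replicates removed, 5708 after the GC correction and 2432 to 5714 with each library left out, against 3375. Those lower numbered 3168 to 6156 with each library left out. Lysosomal sensing genes that were higher numbered 15 with both second replicates removed, 15 after the GC correction and 6 to 14 with each library left out. Those lower numbered 5 with library size alone, 5 with no filter, 7 with both second replicates removed, 5 after the GC correction, 5 on log2(TPM + 1), 5 on log2(TPM + 0.1) and 3 to 9 with each library left out. Substrate enzymes that were lower numbered 13 with both second replicates removed and 3 to 13 with each library left out.

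The replicate numbers are shared by both groups. Deviations from the group means correlated between same-numbered libraries at -0.0084, 0.0093 and 0.072, and between differently numbered ones at -0.040 to 0.030. The parental deviations include the large one of replicate 2, so these values cannot decide whether the numbers mark pairs. With the replicate block the test called 7052 genes, 3169 higher and 3883 lower, and 4 members higher and 1 lower.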
